A study of Mus musculus with 4 samples.

Results

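This report concerns 8 genes that encode neurotrophins and the receptors of the neurotrophin and glial cell line-derived neurotrophic factor (GDNF) families in nuclei of the mouse hippocampus. They were chosen by gene symbol, and all 8 were present among the 56748 genes of the count matrices: the ligands *Bdnf* and *Ntf3*, the neurotrophin receptors *Ntrk2*, *Ntrk3*, *Ngfr* and *Sort1*, and the GDNF family receptors *Gfra1* and *Gfra2*. Hippocampi of male mice were pooled, 3 mice to a pool and 1 pool per condition, 14 h after the last of 6 nights of repeated social defeat (RSD, 2 h a night with an aggressor mouse), or from undisturbed mice. A diet experiment had 2 control pools, Control-Vehicle and Control-PLX5622, and 2 RSD pools, Stress-Vehicle and Stress-PLX5622, on vehicle AIN-76A chow or the same chow carrying PLX5622, an inhibitor of the CSF1 receptor that depletes microglia. A genotype experiment had Con-IL-1R1+/+ and its RSD partner, labelled Stress-IL-1R1+/+, and Con-nIL-1R1-/- with Stress-nIL-1R1-/- as its partner. The nIL-1R1-/- mice lacked the interleukin-1 receptor gene *Il1r1* in cells with *Vglut2*-driven Cre, which marks glutamatergic neurons, and the IL-1R1+/+ mice were bred and housed with them and carried no Cre. The age of the mice and the genotype and source of the mice of the diet experiment are not given in the labels. Each condition being a single pool, the 4 control and 4 RSD pools formed 4 pairs that shared a diet or genotype (vehicle, PLX5622, IL-1R1+/+ and nIL-1R1-/-, called replicates 1 to 4). Where 4 values of an experiment are listed, the 2 control pools come first and the 2 RSD pools second, each with vehicle before PLX5622 or IL-1R1+/+ before nIL-1R1-/-. P-values across pools measure the spread between pools, not between mice.

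Neurotrophins are small secreted proteins that keep neurons alive during development and tune synapses in the adult. *Bdnf* encodes brain-derived neurotrophic factor, which binds the receptor tyrosine kinase TrkB (*Ntrk2*), and *Ntf3* encodes neurotrophin-3, which prefers TrkC (*Ntrk3*). All neurotrophins also bind p75 (*Ngfr*), and their precursors bind p75 together with sortilin (*Sort1*), which sorts pro-neurotrophins in the secretory pathway as well. GDNF family ligands bind a lipid-anchored co-receptor, GFRα1 (*Gfra1*, preferred by GDNF) or GFRα2 (*Gfra2*, preferred by neurturin), and signal through the kinase RET or the adhesion molecule NCAM. In the hippocampus BDNF is known from the dentate gyrus (DG), whose granule neurons send it along the mossy fibers to CA3, and TrkB is also made by astrocytes, largely as a form without the kinase domain. The counts here are per gene and do not separate such forms.

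After removal of 516 of 57350 nuclei, 56834 nuclei remained, and the 8 pools shared 0 barcodes. The median UMI count per nucleus ranged from 598 to 5012 over the pools and was lowest in both PLX5622 pools. Nuclei were clustered without the 8 genes, and clusters were called "X-like" from fixed markers; 18 classes received a name, 6 others are given by their leading genes, and 13355 nuclei were left unnamed. The unnamed nuclei made up 17.3, 41.5, 29.9 and 49.5% of the pools of the diet experiment, in the order above. In the genotype experiment they made up 9.80 to 13.0% of a pool. Class levels in the diet pools thus rest on a smaller part of their nuclei. By UMIs this order need not hold. Unnamed nuclei of Con-nIL-1R1-/- had a median of 12482 UMIs, above that pool's median of 5012, and those of the other pools 417 to 3563.5. Levels were taken in the 13 classes with at least 20 nuclei in every pool, 12 of which are reported here, as CPM, the UMIs of a gene per 1000000 UMIs summed over the nuclei of a class in a pool. INH Lhx6-like and INH Adarb2-like nuclei are inhibitory interneurons, and deep-layer excitatory-like nuclei carry markers of deep cortical layers. Defining markers were highest in their own class for 8 of 8 oligodendrocyte, 8 of 9 astrocyte, 7 of 7 oligodendrocyte precursor (OPC), 4 of 7 DG, 4 of 7 CA1, 5 of 9 CA2/3 and 5 of 10 INH Adarb2 markers, but for only 2 of 9 INH Lhx6 and 2 of 7 deep-layer markers, so the last 2 names are the weakest. Among the DG-like nuclei *Il1r1* was at 61.5 and 28.6 CPM in the IL-1R1+/+ pools and at 11.4 and 9.03 CPM in the nIL-1R1-/- pools (log2 difference -2.14, SE 0.23, adjusted p 3.4e-05, edgeR). That p-value sets a single pair against another and rests on how the RSD change varied between pairs. Microglia-like nuclei numbered 2 and 3 in the PLX5622 pools and 29 to 103 in the other pools. Over all nuclei of a pool, the 8 microglia markers together differed less. They were at 35.7 and 46.7 CPM in Control-PLX5622 and Stress-PLX5622 and at 51.3 to 110.7 CPM in the other pools.

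In the mouse genome (GRCm39) *Bdnf* lies on chromosome 2 (109505045 to 109557475, plus strand), *Ntf3* on chromosome 6 (126078375 to 126143873, minus strand), *Ntrk2* on chromosome 13 (58954176 to 59281784, plus strand), *Ntrk3* on chromosome 7 (77825707 to 78387760, minus strand), *Ngfr* on chromosome 11 (95459638 to 95478561, minus strand), *Sort1* on chromosome 3 (108191285 to 108268842, plus strand), *Gfra1* on chromosome 19 (58223212 to 58444346, minus strand) and *Gfra2* on chromosome 14 (71127472 to 71217280, plus strand). The spans run from 18.9 kb (*Ngfr*) to 562.1 kb (*Ntrk3*), and nuclear RNA includes introns, so CPM were compared between classes and pools and never between genes. RefSeq promoter windows, from 250 bases before to 50 bases after a transcript's start, matched 5 of the 8 genes with 12 windows (GRCm38.p6, a build whose coordinates differ from those above). Windows of the ligands are shown because both were highest in DG-like nuclei. Of the 12 windows, 7 are of *Bdnf*, and only the 1 with the letters CGTCA is shown. Both windows of *Ntf3* are shown. The letters CGTCA, searched with their reverse TGACG, are the core of the element bound by CREB, the factor known for activity-dependent *Bdnf* transcription. They are in capitals where found:
Bdnf chr2:109692186-109692485, plus strand: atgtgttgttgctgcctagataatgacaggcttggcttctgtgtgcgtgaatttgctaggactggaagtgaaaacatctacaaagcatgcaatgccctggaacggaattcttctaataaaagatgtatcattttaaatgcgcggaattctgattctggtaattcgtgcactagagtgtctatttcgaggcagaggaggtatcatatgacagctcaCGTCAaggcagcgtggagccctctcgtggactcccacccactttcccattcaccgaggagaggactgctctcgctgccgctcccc
Ntf3 chr6:126166695-126166994, minus strand: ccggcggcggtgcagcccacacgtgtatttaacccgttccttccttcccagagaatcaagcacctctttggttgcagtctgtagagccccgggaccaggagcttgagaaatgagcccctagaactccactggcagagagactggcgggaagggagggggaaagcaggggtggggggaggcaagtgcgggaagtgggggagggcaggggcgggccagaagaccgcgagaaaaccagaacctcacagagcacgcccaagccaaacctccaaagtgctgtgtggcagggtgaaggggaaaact
Ntf3 chr6:126164911-126165210, minus strand: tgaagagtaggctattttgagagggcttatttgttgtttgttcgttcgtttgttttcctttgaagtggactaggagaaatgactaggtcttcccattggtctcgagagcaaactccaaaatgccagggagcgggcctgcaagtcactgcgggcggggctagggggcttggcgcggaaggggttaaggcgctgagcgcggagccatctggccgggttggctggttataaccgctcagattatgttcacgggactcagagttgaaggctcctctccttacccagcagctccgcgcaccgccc

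CGTCA or its reverse stood in 1 of the 12 windows, that of *Bdnf* shown here, and in 20.8% of all 32851 mouse windows. The letters AGAACA (reverse TGTTCT), an arm of the palindromic glucocorticoid response element, stood in 3 of the 12, all among the 7 of *Bdnf*, and in 19% of all windows. These are matches of letters only.

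*Ntf3* was the member whose level stood out most in 1 class. In DG-like nuclei of the diet experiment it was at 82.3 and 77.2 CPM in the control pools and 79.3 and 65.0 CPM in the RSD pools, and in the genotype experiment at 111.3 and 105.5 CPM in the control pools and 71.6 and 69.6 CPM in the RSD pools. Both control pools of the genotype experiment were above all the others. The mean was 82.7 ± 16.9 CPM (SD, n = 8 pools), and in 8 of 8 pools it was above that of each of the other 12 classes. Among the 12 classes reported here, Hapln1/Egfr-led, INH Lhx6-like, CA2/3-like and Igfn1/Fermt1-led nuclei followed at 27.8, 21.8, 21.4 and 21.02 CPM, and their order was not resolved. CA1-like nuclei were at 6.21 ± 4.33 CPM (2.39 CPM with 15 principal components in the clustering) and Fn1/Pdlim1-led nuclei at 3.30 ± 2.58 CPM (7.23 CPM with 15), so the order of the lowest classes is not settled. Astrocyte-, oligodendrocyte- and OPC-like nuclei held 5, 8 and 4 *Ntf3* UMIs in all. Outside the tested classes, 72 immature DG-like nuclei held 8 *Ntf3* UMIs, or 68.8 CPM (exact 95% interval 29.7 to 136, which like all intervals here covers counting error only), and 155 nuclei with markers of granule neurons such as *Fat2* and *Gabra6* held 10, or 46.6 CPM (22.4 to 85.7).

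*Bdnf* was spread more widely over the excitatory classes. DG-like nuclei had 39.0, 31.8, 34.5 and 34.4 CPM in the diet experiment and 60.5, 73.3, 56.6 and 60.9 CPM in the genotype experiment. All 4 pools of the genotype experiment were above all 4 of the diet experiment. The mean of 48.9 ± 15.8 CPM (n = 8) was followed by 43.1 ± 20.6 CPM in Igfn1/Fermt1-led, 30.4 ± 8.02 in CA2/3-like and 25.9 ± 9.37 CPM in CA1-like nuclei. DG-like nuclei were above Igfn1/Fermt1-led nuclei in 5 of 8 pools, so these 2 do not differ beyond their spread, and the 1 value that carries the latter highest is 86.2 CPM in Con-IL-1R1+/+ (39 UMIs from 67 nuclei). INH Adarb2-like interneurons had 7.25 CPM (3.29 CPM with nuclei thinned to 500 UMIs) and INH Lhx6-like 5.77 CPM (13.3 CPM with the clustering of the next highest modularity), and astrocyte-, oligodendrocyte- and OPC-like nuclei 6.27, 3.53 and 2.60 CPM from 9, 11 and 4 UMIs.

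**Figure D1:**
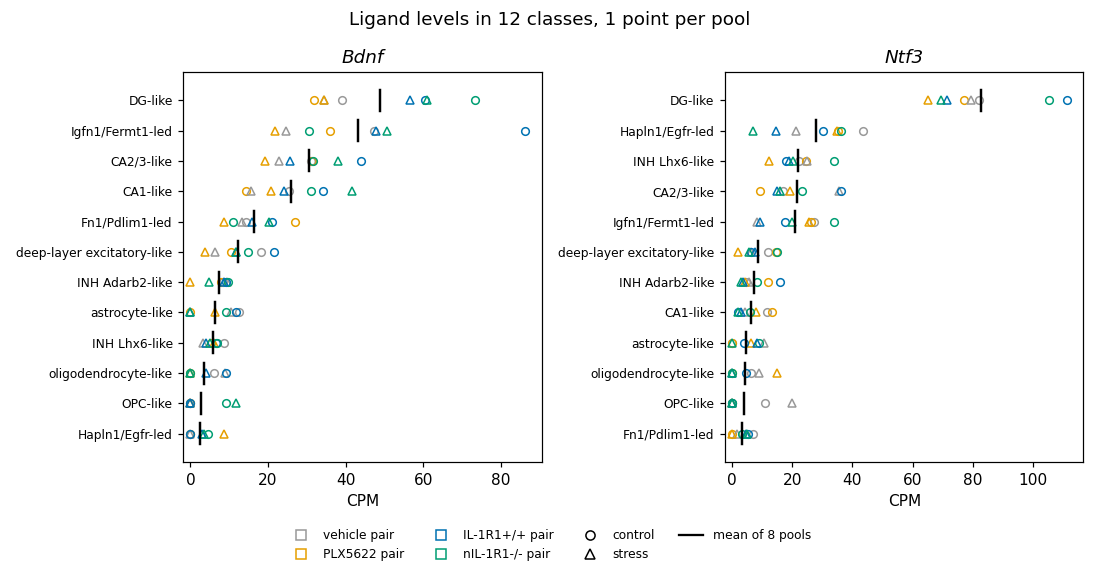
Level in CPM (linear x axis) of *Bdnf* and *Ntf3* in the 12 classes reported (y axis, highest mean first), 1 point per pool, with color for the pair, circles for control and triangles for RSD pools, and a black line for the mean of 8 pools. *Ntf3* in DG-like nuclei sits between 65.0 and 111.3 CPM, above every other class, whereas the *Bdnf* levels of DG-like and Igfn1/Fermt1-led nuclei overlap.

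Free RNA can give a nucleus UMIs of a gene it does not transcribe. As a gauge, the 7 DG markers had a median of 18.2% of their DG level in astrocyte-like nuclei, 10.1% in oligodendrocyte-like, 13.1% in OPC-like and 15.4% in microglia-like nuclei. *Bdnf* stood at 14.0%, 8.42%, 6.33% and 3.56% of its DG level in those classes, and *Ntf3* at 4.83%, 3.79%, 3.92% and 2.20%. None of these is above the median of the markers. In endothelial-like nuclei *Bdnf* was above it (20.7% against 5.79%) and *Ntf3* below (3.20%). Vascular leptomeningeal-like nuclei had both ligands above it (8.99% and 11.1% against 8.17%), and ependymal-like nuclei both below (22.4% and 3.47% against 25.5%). In no pool did these smaller classes hold more than 3 UMIs of either ligand. The single markers spread widely, from 0 to 93.4% in astrocyte-like and from 2.06 to 889.9% in OPC-like nuclei, where *Sema5b* was highest of all classes, so the gauge is coarse, and the part of free RNA in the few glial UMIs was not tested. In CA1-like nuclei the gauge was 3.90%, with *Bdnf* at 52.8% and *Ntf3* at 6.30%. For CA2/3-like nuclei the gauge was also 3.90%, with *Bdnf* at 58.2% and *Ntf3* at 25.1%. With all pools summed, *Ntf3* thus lay near the gauge in CA1-like nuclei, and well above it in CA2/3-like, INH Lhx6-like (26.7% against 7.95%) and Hapln1/Egfr-led nuclei (33.1% against 9.93%). In Igfn1/Fermt1-led nuclei it was closer to the gauge (21.3% against 16.3%) and within the span of the single markers (6.65 to 52.3%). In INH Adarb2-like nuclei *Ntf3* (7.66%) was below the gauge of 11.95% and *Bdnf* (14.8%) slightly above it.

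By share of all UMIs of a gene, DG-like nuclei held 39.4% of those of *Ntf3* (2260 of 5736 UMIs; exact 95% interval 38.1 to 40.7%) and 22.5% of those of *Bdnf* (1399 of 6219; 21.5 to 23.6%), while they held 11.6% of all UMIs of the study. From pool to pool the *Ntf3* share ran from 28.8 to 46.7% and the *Bdnf* share from 13.3 to 25.9%. CA1-like and CA2/3-like nuclei together held 25.1% of the *Bdnf* UMIs, beside 23.3% of all UMIs, and unnamed nuclei 24.7%, beside 22.6%. The 7 glial and vascular classes, with 7.76% of nuclei and 2.77% of all UMIs, held 0.384% of *Ntf3*, 0.547% of *Bdnf*, 1.003% of *Ntrk3*, 1.66% of *Ntrk2*, 1.10% of *Gfra2*, 2.58% of *Sort1* and 4.33% of *Gfra1*. *Gfra1* was the only member with a glial and vascular share above that of all UMIs, apart from *Ngfr*, of which 4 of 42 UMIs lay there. Myelin removal beads were used on these nuclei, and how far that lowers the glial part was not tested.

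**Figure D2:**
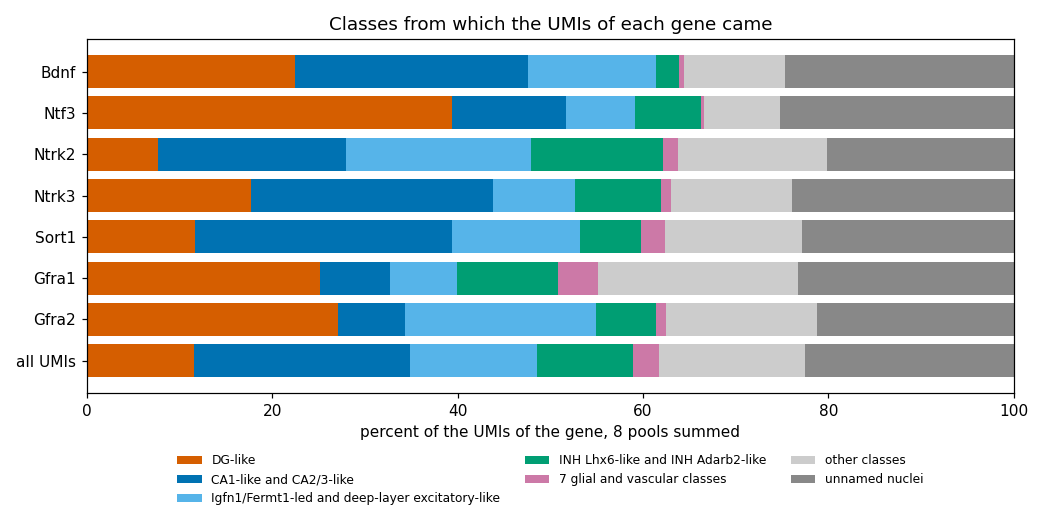
Share of the UMIs of each gene other than *Ngfr* (x axis, percent, 8 pools summed) by group of classes (colors), with all UMIs in the last bar. DG-like nuclei hold 39.4% of *Ntf3* and 7.69% of *Ntrk2* UMIs, against 11.6% of all UMIs.

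*Ntrk2* was high in interneuron, astrocyte and some excitatory classes and low in DG-like nuclei. Hapln1/Egfr-led nuclei had the highest mean of the tested classes, 1539 ± 244 CPM (n = 8), with 1869, 1479.8, 1680.4 and 1236 CPM in the diet experiment and 1222, 1384, 1701 and 1741 CPM in the genotype experiment. Igfn1/Fermt1-led (1293 ± 404), astrocyte-like (1233.5 ± 224) and INH Lhx6-like nuclei (1209 ± 93.7) followed. None of these neighbours passed the adjusted test, which no step seen in 8 of 8 pools passed either. Astrocyte-like nuclei ranged from 994 to 1558 CPM with a median of 1210.3 CPM and were above DG-like nuclei (546 ± 68.7 CPM) in 8 of 8 pools. CA2/3-like nuclei (582 CPM) were above DG-like nuclei in 7 of 8 pools, and DG-like above oligodendrocyte-like nuclei (162 ± 50.6 CPM) in 8 of 8 (exact sign-flip permutation p 0.00781, the smallest that 8 pools can give; adjusted p 0.0625 over 96 tests of neighbouring classes). Outside the tested classes, 113 Cajal-Retzius-like nuclei held 284 *Ntrk2* UMIs, or 1588 CPM (exact 95% interval 1409 to 1784).

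*Ntrk3* was highest in DG-like nuclei, where *Ntrk2* was low. DG-like nuclei were at 1632.5, 1554, 1574 and 1470 CPM in the diet experiment and 1619, 1635, 1765 and 1727 CPM in the genotype experiment, a mean of 1622 ± 94.0 CPM that stood above each other tested class in 8 of 8 pools. CA1-like nuclei had 1221 ± 137 CPM and CA2/3-like 1066 ± 138 CPM, and both this step and the one from DG-like to CA1-like nuclei were seen in 8 of 8 pools (exact permutation p 0.00781, adjusted p 0.0625). OPC-like nuclei, at 1060.2 ± 96.8 CPM, were close to CA2/3-like and INH Lhx6-like nuclei (1053 CPM), whereas astrocyte-like (319 ± 96.8) and oligodendrocyte-like nuclei (200.1 ± 61.7) were the last 2 of the 13. Among glia, the TrkB gene was thus higher in astrocyte-like than OPC-like nuclei (1233.5 against 722 CPM) and the TrkC gene higher in OPC-like than astrocyte-like nuclei, each in 8 of 8 pools. Immature DG-like nuclei, too few to test, had 1953 CPM of *Ntrk3* (exact 95% interval 1707 to 2224).

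*Sort1* was spread over neurons and glia. Its mean was 241 ± 10.4 CPM in Fn1/Pdlim1-led, 214 in CA1-like, 213 in CA2/3-like, 204 in Igfn1/Fermt1-led and 182 CPM in DG-like nuclei, and the lowest neuronal classes, INH Lhx6-like and Hapln1/Egfr-led, had 111 and 107 CPM. Oligodendrocyte-like nuclei were level with the excitatory classes at 205 ± 42.2 CPM, with a range of 134 to 275 CPM over the pools. OPC-like nuclei were lowest at 59.3 ± 77.0 CPM from 46 UMIs, a mean raised by Stress-PLX5622 (236 CPM from 9 UMIs in 48 nuclei). In 414 microglia-like nuclei 156 UMIs gave 308 CPM (exact 95% interval 262 to 360.4); 2 and 3 of these nuclei came from the PLX5622 pools.

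*Ngfr* was near the limit of detection at this depth. Its 42 UMIs in all 56834 nuclei included 8 in deep-layer excitatory-like, 6 in CA1-like, 5 in CA2/3-like and 3 in DG-like nuclei, and 9 in unnamed nuclei. The 87 vascular leptomeningeal-like nuclei held 3, or 15.0 CPM (exact 95% interval 3.09 to 43.8). Astrocyte-, OPC- and microglia-like nuclei held 0. It passed the filter on low counts in 0 of 13 classes and could not be compared between conditions.

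**Figure D3:**
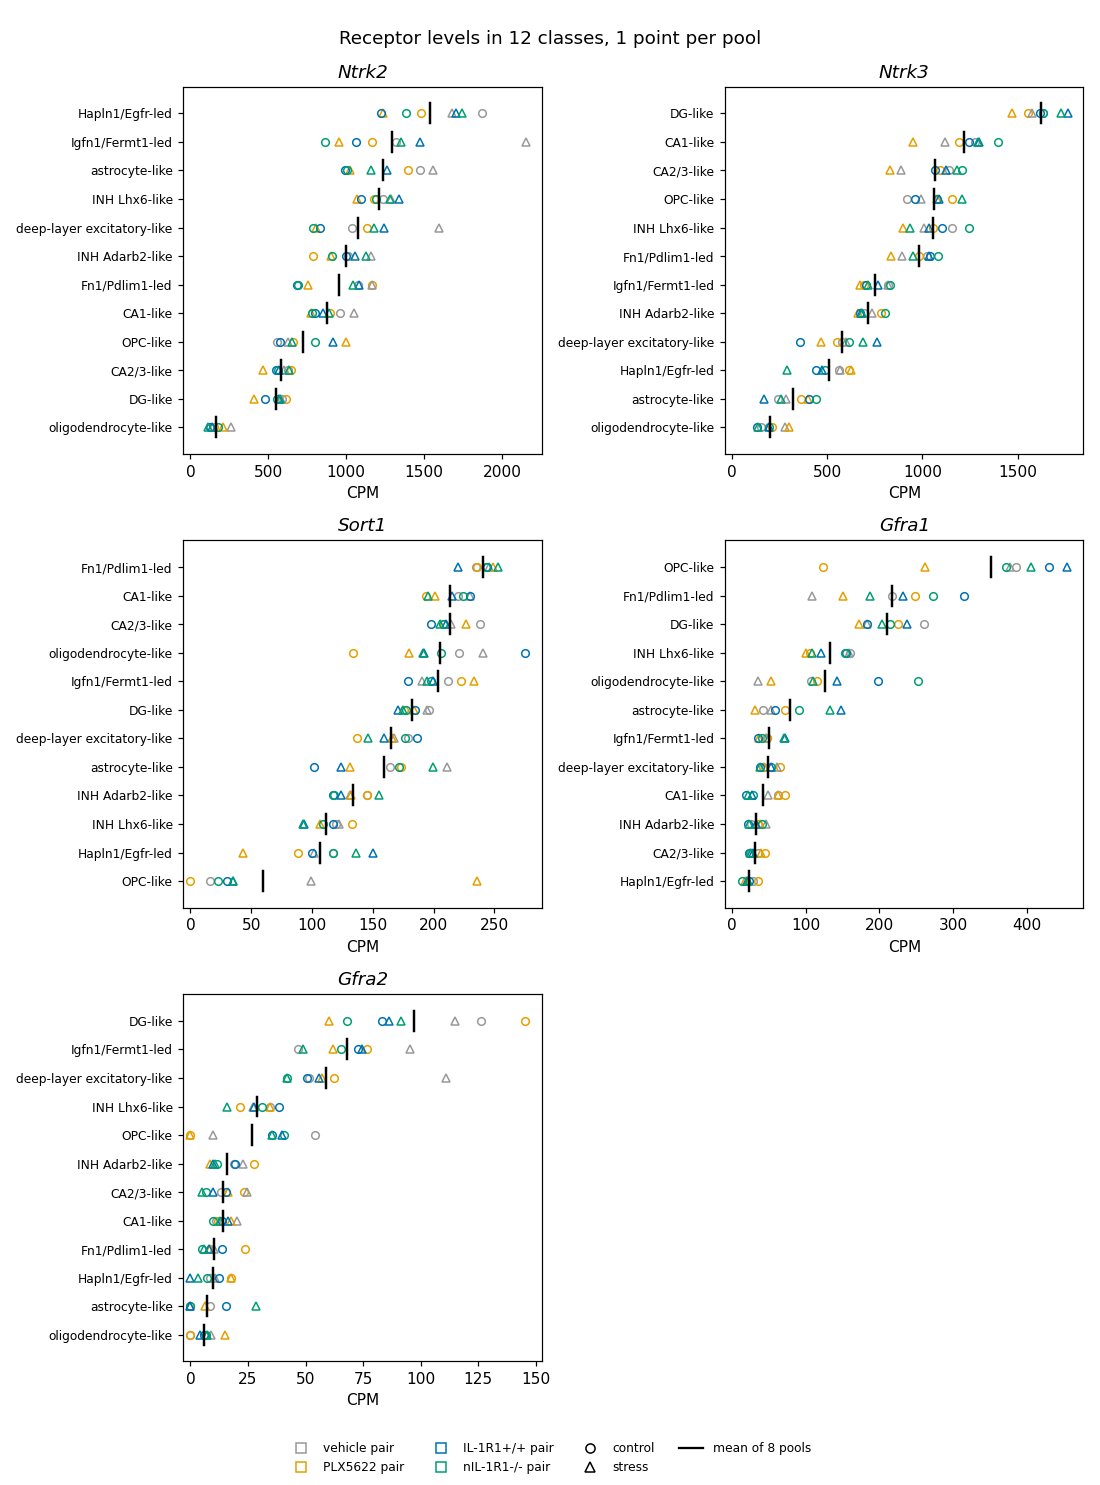
Level in CPM (linear x axes, 1 panel per gene) of the receptor genes other than *Ngfr* in the 12 classes reported (y axes, highest mean first), 1 point per pool, with color for the pair, circles for control and triangles for RSD pools, and a black line for the mean of 8 pools. *Ntrk2* is lowest in oligodendrocyte-like nuclei (162 CPM) with DG-like nuclei next (546 CPM), *Ntrk3* is highest in DG-like (1622 CPM) and *Gfra1* in OPC-like nuclei (351 CPM).

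*Gfra1* was highest in OPC-like nuclei, followed by Fn1/Pdlim1-led and DG-like nuclei. OPC-like nuclei had 384.8, 124.0, 377.8 and 262.1 CPM in the diet experiment and 430.01, 371.4, 454.9 and 406.2 CPM in the genotype experiment (mean 351 ± 108), and Control-PLX5622, with 3 UMIs from 44 nuclei, was the only pool in which DG-like (225.5 CPM) or Fn1/Pdlim1-led nuclei (247.9 CPM) were higher. Fn1/Pdlim1-led nuclei averaged 216.5 ± 66.6 CPM and DG-like nuclei 209.9 ± 30.4, followed by INH Lhx6-like (133 ± 26.1) and oligodendrocyte-like nuclei (127 ± 71.5). DG-like nuclei were above INH Lhx6-like nuclei in 8 of 8 pools (exact permutation p 0.00781, adjusted p 0.0625). CA1-like (42.5) and CA2/3-like nuclei (30.5 CPM) were 8.27- and 11.5-fold below OPC-like nuclei, but with the clustering of the next highest modularity they were at 54.95 and 62.9 CPM. DG-like nuclei held 25.2% of all *Gfra1* UMIs, and in 113 Cajal-Retzius-like nuclei 67 UMIs gave 375 CPM (290.4 to 476).

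*Gfra2* was high in DG-like nuclei as well, but low in astrocyte-like and oligodendrocyte-like nuclei. It was at 126.2, 145.3, 114.7 and 60.1 CPM in DG-like nuclei of the diet experiment and 83.0, 68.1, 86.2 and 91.4 CPM in those of the genotype experiment (mean 96.9 ± 29.4). Igfn1/Fermt1-led and deep-layer excitatory-like nuclei had 67.8 and 59.0 CPM. CA1-like, CA2/3-like and oligodendrocyte-like nuclei had 14.2, 14.3 (30.2 with the clustering of the next highest modularity) and 5.97 CPM, and OPC-like nuclei 26.9 ± 20.6 CPM from 41 UMIs. The OPC-like pools of the genotype experiment were at 35.3 to 40.8 CPM. Those of the diet experiment ran from 0 to 54.2 CPM, and there 3 UMIs equal 124.0 CPM in Control-PLX5622 and 78.6 CPM in Stress-PLX5622. DG-like nuclei held 27.1% of the *Gfra2* UMIs.

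Partners of the receptors were read as well. The ligands of the GFRα receptors were rarely detected, with 64 UMIs for *Gdnf*, 94 for *Nrtn* (neurturin), 29 for *Artn* and 1 for *Pspn*, as was *Ntf5* (neurotrophin-4/5, a TrkB ligand) with 8. *Ret*, the kinase that signals for them, had 373 UMIs and *Ncam1* had 149531. Like CPM, these totals include introns of genes that differ in span, so they do not rank these genes against each other.

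Over all 8 genes, 0 of 96 tests between classes next to each other in the order of the mean passed an adjusted p of 0.05, while 23 had an exact permutation p under 0.05 before adjustment. In 12 of the 96 the higher class was higher in 8 of 8 pools, which is the smallest exact p of 0.00781. Even those had an adjusted p of 0.0625, so with 8 pools the adjusted test could not separate neighbours here. That none passed does not show that neighbouring classes are alike. The order of neighbours is therefore a description.

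Across the 18 named classes, the genes whose mean log2(CPM + 1) followed each member most closely, among 11841 genes, were for *Ntf3* *Slc29a4*, *Gm31615* and *Herc3* (Pearson r 0.91, 0.85 and 0.81), for *Bdnf* *Gabra5*, *Slit1* and *Car12* (0.87, 0.81 and 0.77), for *Ntrk2* *Radil*, *Ppargc1a* and *Gm45846* (0.88, 0.87 and 0.87), for *Ntrk3* *Timm44*, *Slc7a14* and *Gucy1b1* (0.90, 0.85 and 0.85), for *Sort1* *Narf*, *Anks3* and *Smurf1* (0.78, 0.76 and 0.75), for *Gfra1* *Gpsm2*, *2610008E11Rik* and *Pcdh11x* (0.77, 0.75 and 0.72), and for *Gfra2* *Fam163b*, *Prr36* and *Zfpm2* (0.74, 0.72 and 0.69). These coefficients are over class means that share libraries and depth.

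RSD was compared with control over the 4 pairs, to ask whether stress altered the ligands or receptors in any class. Of 104 member and class pairs, 74 passed the filter on low counts (8 each for *Bdnf* and *Ntf3*, 13 each for *Ntrk2* and *Ntrk3*, 12 for *Sort1*, 11 for *Gfra1* and 9 for *Gfra2*), and 0 were called at an adjusted p of 0.05 with edgeR or with DESeq2, beside 0.314% of all 100032 gene and class pairs with edgeR. Before adjustment 15 of the 74 had an edgeR p under 0.05, beside 10.4% of all. The genes whose RSD pools were lower in all 4 pairs made 9 of the 75 member and class pairs with a mean of at least 10 UMIs a pool (12%, beside 9.07% of all genes), and those higher in all 4 made 2 (2.67%, beside 9.98%).

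The smallest adjusted p belonged to *Gfra1* in oligodendrocyte-like nuclei. Control and RSD pools were at 107.2 and 35.6 CPM on vehicle chow, 114.7 and 52.5 CPM on PLX5622, 198.0 and 142.5 CPM in IL-1R1+/+ mice, and 252.6 and 109.6 CPM in nIL-1R1-/- mice. The RSD pool was lower in 4 of 4 pairs, although the ranges of the control and RSD pools overlapped, and the pools held 4 to 131 UMIs of the gene. The log2 change of -0.88 (SE 0.22) had an adjusted p of 0.0859 with edgeR, and of 0.0717 to 0.998 under the alternatives. *Gfra1* in Fn1/Pdlim1-led nuclei, a cluster that no marker list named, went the same way in 4 of 4 pairs, with 217.4 against 108.8, 247.9 against 150.3, 315.3 against 232.4 and 272.9 against 186.9 CPM in the order of the pairs above (log2 change -0.67, SE 0.14, adjusted p 0.0896). It passed with no filter on low counts (adjusted p 0.00216) and without replicate 2, the PLX5622 pair (0.0366), and did not with any other alternative (0.0506 to 0.612). In DG-like nuclei the pools were at 259.9, 225.5, 183.6 and 214.9 CPM in controls and 182.7, 171.8, 237.7 and 203.2 CPM after RSD, lower in 3 of 4 pairs. The oligodendrocyte-like class joined clusters of 863, 825 and 252 nuclei with medians of 500, 1443 and 1536.5 UMIs. In control and RSD pool, the largest held 109 of 280 and 76 of 124 nuclei in the vehicle pair. In the PLX5622 pair it held 108 of 123 and 194 of 239. It held 166 of 476 and 95 of 320 in the IL-1R1+/+ pair, and 24 of 143 and 91 of 235 in the nIL-1R1-/- pair. The part of this mix in the *Gfra1* levels was not tested.

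*Ntf3* had a negative RSD estimate in 8 of 8 classes tested, with a median log2 change of -0.80, and passed in 0 of them (6 at an unadjusted p under 0.05; 0 with DESeq2). The medians of all genes of a class lay between -0.01 and 0.01. All classes come from the same 8 pools, so counts of classes by sign, here and below, are not independent. The share of all genes with such counts was not taken. In DG-like nuclei each RSD pool was below its control (the levels are given above), by little in the vehicle pair and most in the genotype pairs, and the log2 change of -0.42 (SE 0.12) had an adjusted p of 0.166 with edgeR (0.0731 to 0.714 under the alternatives). In Igfn1/Fermt1-led nuclei *Ntf3* was at 27.3 against 8.2 CPM in the vehicle pair, 26.4 against 25.5 in the PLX5622 pair, 17.7 against 9.4 in the IL-1R1+/+ pair and 33.8 against 19.9 in the nIL-1R1-/- pair (log2 change -0.96, SE 0.26, adjusted p 0.0880; 0.0507 to 0.670 under the alternatives). That class held 67 to 743 nuclei a pool, and its *Ntf3* was at 21.3% of the DG level with all pools summed, against a gauge of 16.3%. Hapln1/Egfr-led nuclei were the third class in which all 4 RSD pools were lower, at 21.3 against 43.5, 34.8 against 35.2, 14.4 against 30.05 and 7.0 against 36.1 CPM from 82 UMIs (log2 change -1.17, SE 0.42, adjusted p 0.648). The fall was not uniform: in CA2/3-like and INH Lhx6-like nuclei the RSD pool was lower in 2 pairs and higher in 2. CA2/3-like RSD pools were higher in the diet experiment, at 35.5 against 17.1 and 19.1 against 9.3 CPM. They were lower in the genotype experiment, at 15.0 against 36.1 and 16.0 against 23.2 CPM.

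*Bdnf* had a negative estimate in 6 of 8 classes, and the one for DG-like nuclei was small (log2 change -0.16, SE 0.12, adjusted p 0.677, edgeR). Control and RSD pools had 39.0 and 34.5 CPM there in the vehicle pair, 31.8 and 34.4 in the PLX5622 pair, 60.5 and 56.6 in the IL-1R1+/+ pair, and 73.3 and 60.9 in the nIL-1R1-/- pair. In deep-layer excitatory-like nuclei the RSD pool was lower in 4 of 4 pairs, at 6.2 against 18.3, 3.8 against 10.4, 11.8 against 21.4 and 11.8 against 14.8 CPM from 198 UMIs (log2 change -0.77, SE 0.27, adjusted p 0.176). This class joined a cluster of 2341 nuclei with another of 1197. In control and RSD pool, the larger held 269 of 456 and 267 of 382 nuclei in the vehicle pair. In the PLX5622 pair it held 247 of 412 and 216 of 370. It held 111 of 274 and 419 of 531 in the IL-1R1+/+ pair, and 309 of 480 and 503 of 633 in the nIL-1R1-/- pair. The part of this mix in the levels of the class was not tested.

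*Ntrk2* had the other sign, with a positive estimate in 11 of 13 classes that share the same pools, and 0 calls. INH Adarb2-like nuclei were higher after RSD in 4 of 4 pairs (1161 against 1011, 904.5 against 787.7, 1058 against 1001 and 1127 against 910.9 CPM; log2 change 0.20, SE 0.12, adjusted p 0.898, edgeR). In deep-layer excitatory-like nuclei *Ntrk2* was at 1597 against 1034, 803.2 against 1129.98, 1242 against 834.1 and 1175 against 789.4 CPM, higher in 3 pairs and lower in the PLX5622 pair (log2 change 0.34, SE 0.17, adjusted p 0.396). Without replicate 2, the PLX5622 pair, the estimate was 0.63 with an adjusted p of 0.00484 (edgeR). Leaving out the only pair that fell raises the estimate by construction. RSD then also called 680 genes over all classes, against 314 with all pairs. No other alternative run called *Ntrk2* in this class. The mix of clusters in this class differed between the pools, as given above, and its part in these values was not tested. In Igfn1/Fermt1-led nuclei *Ntrk2* was higher in the same 3 pairs (0.36, SE 0.17, adjusted p 0.431; 0.61 and 0.0246 without replicate 2). There too the call was made only without the pair that fell.

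*Ntrk3*, *Sort1* and *Gfra2* had estimates of both signs and 0 calls with edgeR (1, 0 and 2 at an unadjusted p under 0.05) and with DESeq2. *Gfra2* in CA1-like nuclei was higher after RSD in 4 of 4 pairs, at 20.4 against 11.1, 17.7 against 12.05, 16.3 against 13.8 and 12.7 against 9.7 CPM (log2 change 0.47, SE 0.21, adjusted p 0.316).

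**Figure D4:**
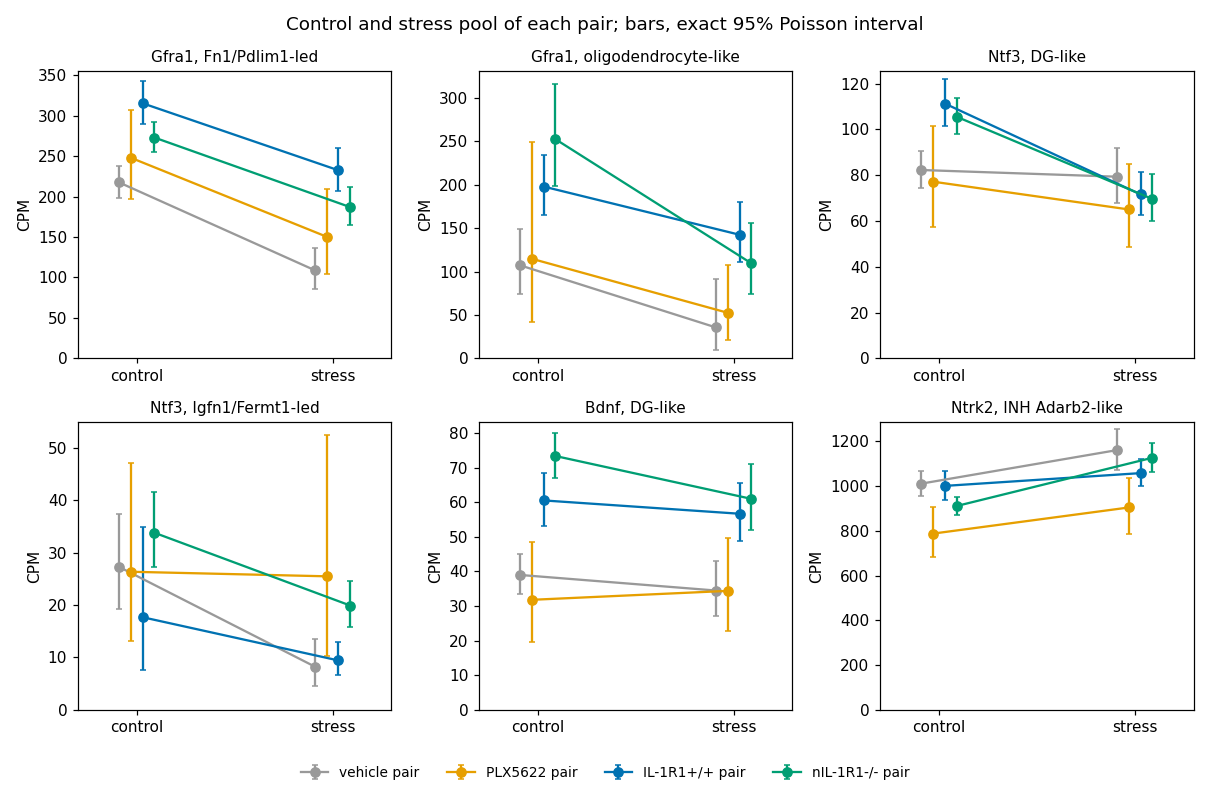
Level in CPM (linear y axes) in the control and RSD (stress) pool of each pair, joined by a line, for 6 members and classes; bars are exact 95% Poisson intervals, which cover counting error only. *Gfra1* in Fn1/Pdlim1-led and oligodendrocyte-like nuclei and *Ntf3* in DG-like and Igfn1/Fermt1-led nuclei are lower after RSD in 4 of 4 pairs, and *Ntrk2* in INH Adarb2-like nuclei is higher in 4 of 4.

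PLX5622 was compared with vehicle, and nIL-1R1-/- with IL-1R1+/+, over the control and RSD pools of each. Each pair had its own term in this fit, so a single pair stood on each side. The p-values therefore rest on how the RSD change varied between pairs, not on a spread between pairs of the same diet or genotype. PLX5622 changed 0 of the 74 (edgeR; 3 at an unadjusted p under 0.05; smallest adjusted p 0.639; 0 with DESeq2), beside 0.033% of all genes called and 5.49% before adjustment. The deletion of neuronal *Il1r1* changed 0 of the 74 (5 before adjustment; smallest adjusted p 0.9985; 0 with DESeq2), beside 0.003% of all genes called and 2.31% before adjustment. *Gfra2* had a negative estimate in 9 of 9 classes, which share the same pools, in the latter comparison. CA2/3-like nuclei had 15.3 and 9.8 CPM of it in the IL-1R1+/+ pools and 6.9 and 5.2 CPM in the nIL-1R1-/- pools (log2 difference -0.97, SE 0.36), with an adjusted p of 1. *Ntf3* in Igfn1/Fermt1-led nuclei had 17.7 and 9.4 CPM in the IL-1R1+/+ pools and 33.8 and 19.9 CPM in the nIL-1R1-/- pools (log2 difference 0.99, SE 0.34), also with an adjusted p of 1.

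The RSD effect was also compared between genotypes, as the difference of the nIL-1R1-/- pair from the IL-1R1+/+ pair, a contrast that leaves 1 pool per condition. It called 0 of the 74 members and classes (11 before adjustment, smallest adjusted p 0.909 with edgeR, and 0 with DESeq2), beside 0.023% of all genes called and 2.86% before adjustment. *Bdnf* in Igfn1/Fermt1-led nuclei was at 86.2 CPM in the control pool and 47.9 CPM in the RSD pool of IL-1R1+/+ mice, and at 30.5 and 50.7 CPM in those of nIL-1R1-/- mice (difference of log2 changes 1.57, SE 0.54, adjusted p 1). In DG-like nuclei *Bdnf* was lower in the RSD pool of both genotypes, as given above.

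In the main fits, members were called only between the experiments, a comparison chosen after the values were seen that also called the largest share of all genes. The 4 pools of the genotype experiment were compared with the 4 of the diet experiment across RSD and control. Each pair had its own term in this fit. The p-values therefore rest on how the RSD change varied between pairs, not on the spread between pairs of an experiment. The experiments differ in chow, in the mice, in depth and in the share of nuclei left unnamed, and these cannot be told apart. With edgeR 6 of the 74 were called (8.11%, beside 3.61% of all genes, and 24 before adjustment, beside 18.7%), 3 higher and 3 lower in the genotype experiment, where 1.4% of all genes were higher and 2.2% lower. *Bdnf* was higher in DG-like nuclei (log2 difference 0.90, SE 0.13, adjusted p 0.000454; 7.52% of genes called in that class), and each run without 1 pair kept that call (adjusted p 0.00107 to 0.0161). In CA1-like nuclei it had 25.3, 14.2, 15.6 and 20.9 CPM in the diet experiment and 34.1, 31.1, 24.1 and 41.7 CPM in the genotype experiment (0.86, SE 0.22, adjusted p 0.0241; 8.48% called), a call lost without replicate 1, 2 or 4 (adjusted p 0.103, 0.0562 and 0.113). Thinned to 500 UMIs a nucleus, the difference was 0.67 in DG-like nuclei (adjusted p 0.157) and 0.51 in CA1-like nuclei (0.471).

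*Gfra1* went in both directions. In CA1-like nuclei it was lower in the genotype experiment, at 19.1, 28.4, 27.1 and 22.0 CPM against 61.8, 71.2, 48.0 and 62.6 CPM, with no overlap (log2 difference -1.26, SE 0.17, adjusted p 0.000466), and after thinning the difference was -1.38 (adjusted p 0.0130). With the clustering of the next highest modularity it was -0.52 (adjusted p 0.373). In oligodendrocyte-like nuclei *Gfra1* was higher (1.18, SE 0.26, adjusted p 0.0114; 1.99% called; 0.204 without replicate 1), with the levels given above. The mix of clusters in this class differed between the pools, as given above, and its part in this difference was not tested.

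Of the other calls, *Ntf3* in CA1-like nuclei was lower in the genotype experiment (1.9, 6.0, 3.0 and 1.9 CPM against 11.5, 13.1, 4.2 and 8.0 CPM; -1.52, SE 0.36, adjusted p 0.0159). With all pools summed it was at 6.30% of its DG level there, against a gauge of 3.90%. DG-like nuclei of the diet experiment had 82.3, 77.2, 79.3 and 65.0 CPM, and the gauge was not taken for each pool. The *Ntf3* call was lost with the other clustering (adjusted p 0.0662) and without replicate 1 or 3 (0.0865 and 0.122). *Gfra2* in CA2/3-like nuclei was lower as well (15.3, 6.9, 9.8 and 5.2 CPM against 13.1, 23.2, 24.7 and 16.2 CPM; -0.97, SE 0.28, adjusted p 0.0435; 6.75% called), and was lost without likely doublets, with the other clustering, in the largest cluster alone (0.0952, 0.0950 and 0.0718) and without replicate 1, 2 or 4 (0.0849, 0.0857 and 0.452). Of 75 member and class pairs, 4 had no overlap between the experiments (5.33%, beside 10.4% of all genes). DESeq2 made 3 of the 6 calls, those of *Bdnf* in DG-like and CA1-like and of *Gfra1* in CA1-like nuclei.

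**Figure D5:**
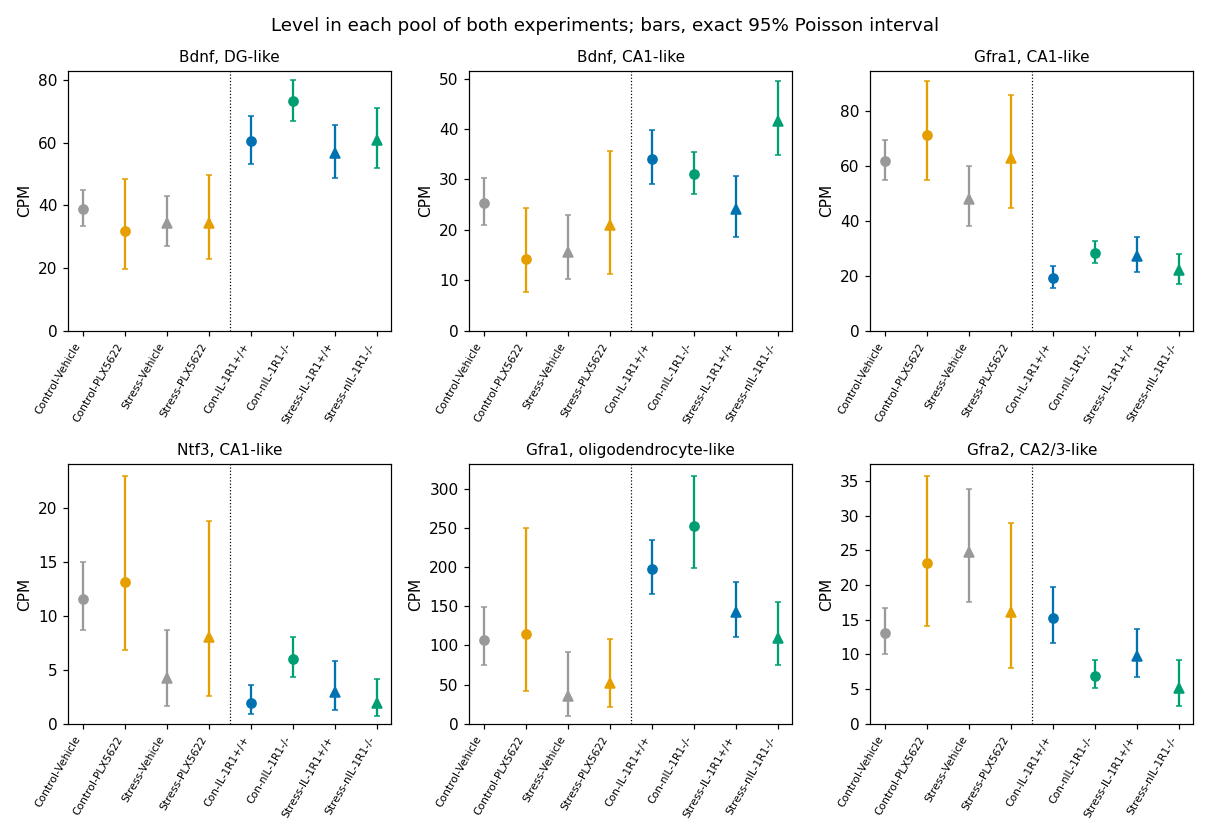
Level in CPM (linear y axes) in each pool (x axes) for the 6 members and classes called between the experiments; the dotted line parts the diet from the genotype experiment, circles are control and triangles RSD pools, and bars are exact 95% Poisson intervals for counting error. *Bdnf* in DG-like nuclei is between 31.8 and 39.0 CPM in the diet experiment and between 56.6 and 73.3 CPM in the genotype experiment.

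The wider pathway was read from 42 other genes (further ligands and receptors, proteases that process the ligands, and signalling adaptors), of which 30 passed the filter in some class, giving 286 tests a comparison. RSD raised 1 and lowered 0 of the 286 with edgeR, beside 0.314% of all gene and class pairs called, and 40 had an unadjusted p under 0.05, beside 10.4% (1 call with DESeq2). The share of this list is therefore near the background. That gene was *Bex3*, an adaptor of p75, in Fn1/Pdlim1-led nuclei, where the p75 gene *Ngfr* was at 0 CPM in each of the 8 pools. The CPM of *Bex3* rose from 7.9 to 44.1 in the vehicle pair, from 6.0 to 34.4 in the PLX5622 pair, from 4.0 to 12.7 in the IL-1R1+/+ pair and from 4.2 to 10.2 in the nIL-1R1-/- pair (log2 change 1.94, SE 0.32, adjusted p 0.0210, edgeR), with 2 and 8 UMIs behind the values of the PLX5622 pair. The median log2 change over the 286 was 0.02. PLX5622, the *Il1r1* deletion and the comparison of RSD between genotypes changed 0 of the 286 (19, 16 and 8 at an unadjusted p under 0.05 with edgeR; 0 with DESeq2). Between experiments 10 of the 286 were called, beside 3.61% of all, which is again near the background. Of these, 6 tests were called higher in the genotype pools, among them those of *Dok5*, an adaptor of receptor kinases, in CA1-like and CA2/3-like nuclei, *Shc3*, an adaptor of Trk receptors in neurons, in CA2/3-like, *Sorcs1* in Fn1/Pdlim1-led and *Gab1* in oligodendrocyte-like nuclei. Lower there were 4, *Shc1* and *Sorcs2*, a sortilin relative, in CA1-like, *Shc2* in CA2/3-like and *Rtn4r* in DG-like nuclei. *Sorcs2* in CA1-like nuclei was at 186 to 257 CPM in the diet experiment and at 98.8 to 127 CPM in the genotype experiment.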

How the data were processed

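Nuclei were barcoded in 4 sublibraries that each held all 8 pools (Parse combinatorial barcoding), and the authors aligned reads to mm39 with the Parse pipeline and deposited UMI counts per gene and nucleus (the annotation release is not given in the sources used here; the submitters' notes name Seurat 4.1.1). Nuclei above 20% mitochondrial UMIs were removed, and the others were clustered with scanpy 1.11.5 (2000 variable genes, 30 principal components, 15 neighbours) without the members and the pathway genes. Leiden clustering (resolution 1) was run to convergence from 5 seeds and the partition of highest modularity kept, a step added after earlier results so that a repeat gives the same classes. No doublets were removed in the main analysis; leaving out the 6% of nuclei with the highest Scrublet score was an alternative. Clusters were named from fixed markers by a rule revised after the cluster tables were seen. The members, lists and comparisons were chosen with earlier results of these data known.

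UMIs were summed per class and pool. Conditions were compared with edgeR 4.0.16 (R 4.3.3; TMM, filterByExpr, quasi-likelihood test) with pair and RSD as terms, 3 residual degrees of freedom (1 for RSD by genotype) and Benjamini-Hochberg adjustment over all genes of a class. DESeq2 1.42.0, no filter on low counts, nuclei thinned to 500 UMIs, 15 principal components, a 5% mitochondrial limit, no pairing and leaving out each pair were alternatives, and the clustering of the next highest modularity, the largest cluster of each class and the comparison of the experiments were added after the data were seen. Of these, the 5% mitochondrial limit was applied to the levels only and no pairing to RSD only. Leaving out each pair was applied to RSD and to the comparison of the experiments. The test scripts were tested on simulated counts. The pairs are set by diet and genotype; the deviations of paired pools correlated at 0.0136 to 0.282, with every pair above 0.1 in 3 of 13 classes. Levels of neighbouring classes were compared by a two-sided exact sign-flip permutation test of log2(CPM + 1) over 8 pools. Named were the 8 members, the pathway genes called, the 3 genes most like each member (mean CPM of at least 20 in some class), and *Il1r1* and the microglia markers as checks. Other genes enter as counts only. The depth, a median of 598 to 5012 UMIs a nucleus, limits the rare genes: in a class with 0 UMIs, the exact 95% interval for counting error reaches above 3 UMIs. Of the 13 classes tested, 1 is not reported here, and neither are some pathway genes; both are included in the counts over all classes and genes.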

Additional observations from a re-analysis of the deposited data

Results flagged for a closer look

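Within each class, the 4 control and the 4 RSD pools of every member were searched for a pool far from the other 3. Of 148 groups searched, 6 held such a pool, where chance gives about 1 in 20, or 7. In CA2/3-like nuclei *Bdnf* was at 43.9 CPM in Con-IL-1R1+/+ and at 31.0 to 31.7 CPM in the other controls. In INH Lhx6-like nuclei *Gfra1* was at 105.8 CPM in Control-PLX5622 (the others 153.3 to 159.5), and in INH Adarb2-like nuclei *Gfra2* was at 22.8 CPM in Stress-Vehicle (8.49 to 10.5). Stress-PLX5622 had the low values of *Ntrk2* in DG-like nuclei, 406.2 CPM (571.2 to 582.6), and in Hapln1/Egfr-led nuclei, 1236 CPM (1680.4 to 1741). In astrocyte-like nuclei *Sort1* was at 101.7 CPM in Con-IL-1R1+/+ (164.1 to 172.9). The PLX5622 pools, which hold 3 of these values, had the lowest median UMI counts (598 and 628).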

How the results depend on the processing

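The mean level of each member in its highest class moved by less than 1 SD under every alternative run, except *Sort1* in Fn1/Pdlim1-led nuclei, which was at 241 CPM and at 230.02 CPM after thinning and 228 CPM with 15 principal components. RSD called 314 genes over all classes, and 1276 with no filter on low counts, 112 (of 312) after thinning, 268 (of 173) in the largest clusters, 39 with no replicate block (the pairing left out), and 168 to 680 leaving out each pair, the highest without replicate 2. It called 0 members, and 1 with no filter and 0 to 3 leaving out each pair (3 without replicate 2), and with no replicate block also 0. PLX5622 called 33 genes, and 180 with no filter, 15 (of 30) after thinning, 476 (of 31) with 15 principal components and 20 (of 5) in the largest clusters. The deletion called 3, and 1 with DESeq2, 70 with no filter, 5 with 15 principal components, 7 with the clustering of the next highest modularity and 3 (of 1) in the largest clusters. RSD by genotype called 23, and 0 with DESeq2, 6 after thinning and 4 (of 10) in the largest clusters. The experiments differed in 3607 genes, and in 2152 with DESeq2, 872 (of 3562) after thinning and 957 to 2875 leaving out each pair, and in 6 member and class pairs, and in 3 with DESeq2, 1 after thinning, 2 (of 5) in the largest clusters and 2 to 6 leaving out each pair. Figures in brackets are the main counts in the same classes. The cause was not tested. CA2/3-like levels moved with the clustering (*Gfra1* 62.9 and *Gfra2* 30.2 CPM with the next highest modularity, against 30.5 and 14.3), and *Gfra2* in INH Adarb2-like nuclei with thinning (6.74 against 16.1 CPM). Thinned OPC-like nuclei, Igfn1/Fermt1-led nuclei with either other clustering and Hapln1/Egfr-led nuclei with 15 principal components gave no value. The smallest exact p over 8 pools is 0.00781.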
